A study of Mus musculus with 16 samples.

Results

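The keratins measured here were the genes of the count table whose symbol is Krt followed by digits alone, 50 of 49568 gene symbols. Krt85 was not analysed here, and Krt6a, Krt6b, Krt33a and Krt33b, whose symbols end in a letter, were not members and are given only where a result touches them. RNA-seq was performed on 16 libraries of the deep digital flexor tendon of digit 3 of the hind paw of male mice aged 9 to 11 weeks, with 4 libraries in each of 4 groups. Each strain, C57BL/6J (C57) or MRL/MpJ (MRL), gave a group of uninjured tendons and a group collected 7 days after injury. C57BL/6J mice are widely used inbred mice, while MRL/MpJ mice are inbred too and known for healing with little scarring. The injury was a cut through roughly 50% of the tendon width, made through an incision in the skin of the digit that was then sutured. Each library came from the tendon of 1 animal with its sheath and the tissue around it left on, so it was a bulk sample in which fewer cells of a type and less RNA per cell cannot be told apart. Uninjured libraries are named by the replicate number in their labels, and injured libraries by the BI number in their labels (BI-181 to BI-185 in C57, BI-270 to BI-275 in MRL).

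Keratins are the intermediate filament proteins of epithelia, and a filament is built of pairs of a type I and a type II keratin. Epidermis makes Krt5 and Krt14, with Krt15, in its basal layer. Cells that leave that layer switch to Krt1 and Krt10, and later add Krt2. The thick skin of palms and soles adds Krt9, and Krt16 and Krt17, with Krt6a and Krt6b, are known as the keratins of wounded or stressed skin. Hair keratins build the hair shaft, and Krt8, Krt18 and Krt19 are keratins of simple epithelia. Tendon fibroblasts are not epithelial and are not known for keratin filaments.

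Total counts ranged from 12552424 to 23741648 per library, so that 3 counts, the floor below which a gene is called not detected here, corresponded to 0.126 to 0.239 CPM (the count of a gene scaled by the total counts of its library). All 8 genes of a tenocyte list (among them Scx, Tnmd, Fmod and Col1a1) had counts far over that floor in all 16 libraries. The library labelled C57 uninjured replicate 4 stood apart, because keratins took 7.94% of all its counts. The share was 0.0772% in C57 uninjured replicate 3, 0.0466% in MRL uninjured replicate 1, 0.0086% in BI-272, and between 0.0021% and 0.0055% in the remaining libraries. These shares carry counting error that is small at this depth (95% exact binomial interval 7.93% to 7.95% in C57 uninjured replicate 4). With a single library on one side, its contrast with the other 15 is a description without a test. The edgeR comparisons that rest on it are given below with and without it, and the DESeq2 ones with it alone.

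Of the 50 members, 32 had over 3 counts in at least 1 library, 2 (Krt72 and Krt76) never had more than 3, and 16 had 0 counts in all 16 libraries. Krt10 and Krt80 were the members with over 3 counts in every library. C57 uninjured replicate 4 had 20 members over 3 counts, against 4 to 15 in the other libraries. Of those 20, 18 were at their highest CPM there. The exceptions were Krt16 and Krt17, which were higher in C57 uninjured replicate 3. Krt77, Krt84 and Krt90 had over 3 counts in C57 uninjured replicate 4 and 0 in the other 15, and 12 members had over 3 counts in some other library but not in this one. The heatmap of keratins by library shows this bright column beside the weaker columns of C57 uninjured replicate 3 and MRL uninjured replicate 1.

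**Figure D1:**
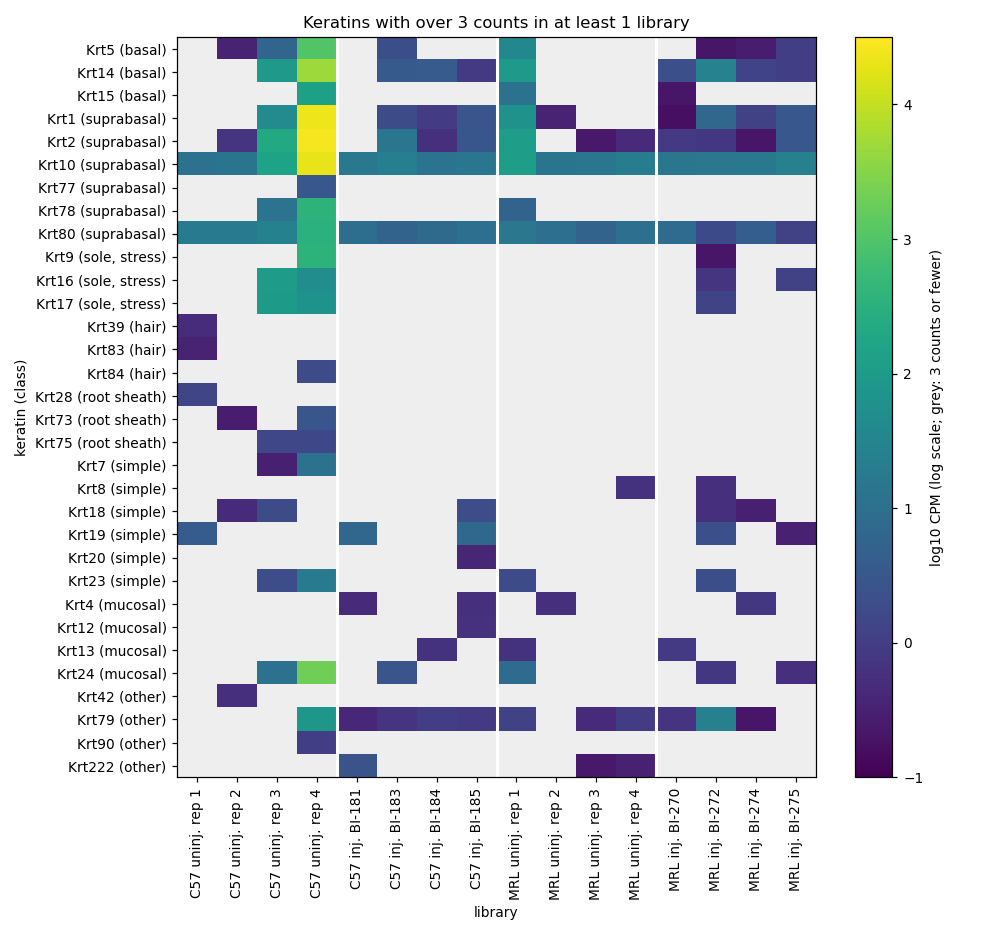
Level of the 32 keratins with over 3 counts in at least 1 library (vertical axis, with class) in the 16 libraries (horizontal axis, white lines between groups), as log10 CPM; grey cells have 3 counts or fewer. C57 uninjured replicate 4 has 20 coloured cells, and Krt10 and Krt80 are coloured in all 16 libraries.

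The genes lie in clusters on chromosomes 11 and 15 (GRCm38, GENCODE M21), 25 members each. The cluster on chromosome 11 (99232761 to 100269871) holds type I genes, and that on chromosome 15 (101347444 to 102032027) holds type II genes together with the type I gene Krt18. In C57 uninjured replicate 4, 8 members of the cluster on chromosome 11 and 12 of that on chromosome 15 had over 3 counts. Genes without a count lay between them: Krt25, Krt26 and Krt27 (0 counts in every library) lie between Krt24 and Krt10, which had 36106 and 375627 counts. The plot of levels along the clusters shows the detected genes in separated places rather than in 1 block.

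**Figure D2:**
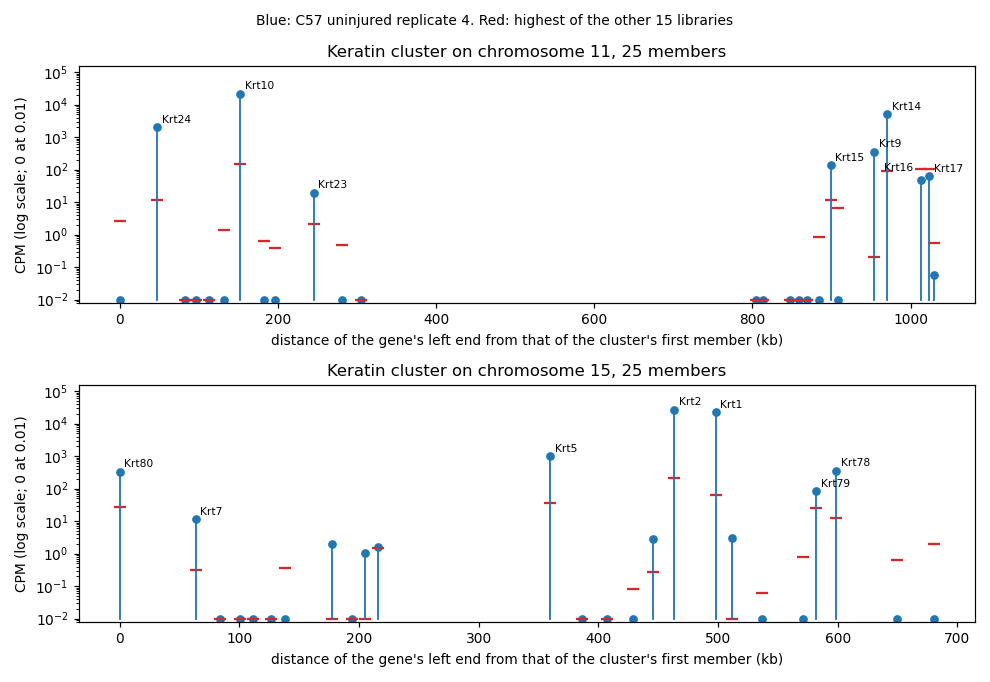
CPM of each keratin (log scale) in C57 uninjured replicate 4 (blue) and in the highest of the other 15 libraries (red dashes), against the distance in kb from the first member of its cluster on chromosome 11 (top) and chromosome 15 (bottom). Members at 0 are drawn at 0.01; Krt16 and Krt17 are the labelled genes whose red dash lies above the blue point.

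Since the members are neighbours that differ so much in level, the bases before their starts were compared. RefSeq promoter windows (GRCm38.p6, 250 bases before to 50 after the start, 300 in all) were at hand for 35 of the 50 members, and 32 of these starts lay within 100 bases of the GENCODE start (Krt7, Krt8 and Krt14 did not). The letters TATAAA, searched on both strands, were in 18 of the 35 windows (51.4%) and in 14.2% of all 27025 promoter windows. They were in 10 of the 12 windows of keratins with at most 3 counts in every library (83.3%) and in 1 of the 10 windows of keratins that reached 10 CPM in a library, that of Krt10. No window was at hand for Krt1, Krt15, Krt16, Krt17 and Krt80, which also reached 10 CPM. The same held for Krt35, Krt74, Krt81, Krt86, Krt87 and Krt88, which had 0 counts. The starts used for Krt7 and Krt14, both without the motif, lie 1360 and 1518 bases from the GENCODE start, inside the genes. Krt7, Krt9 and Krt23 reached 10 CPM in C57 uninjured replicate 4 alone. These shares therefore describe the windows at hand, not all high or silent keratins. In 13 windows TATAAA began 26 to 40 bases before the start. CCAAT was in 37.1% of the keratin windows and in 37.9% of all windows, and TGANTCA, the AP-1 motif, in 1 keratin window (2.86%) and in 7.93% of all. The windows of neighbouring paralogs are not independent, and a match is no more than these letters. The 250 bases before the start are shown for Krt2 and Krt10, the keratins with the highest level per length in C57 uninjured replicate 4, for the basal keratin Krt5, and for the hair keratin Krt31, which had 0 counts everywhere. Capitals mark TATAAA, and the last base is the one before the start.
Krt2, chr15:101818170-101818419, minus strand: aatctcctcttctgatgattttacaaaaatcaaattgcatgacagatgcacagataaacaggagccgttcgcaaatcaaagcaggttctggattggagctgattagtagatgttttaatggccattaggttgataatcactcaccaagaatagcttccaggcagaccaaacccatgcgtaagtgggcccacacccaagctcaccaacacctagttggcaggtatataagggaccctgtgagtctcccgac
Krt10, chr11:99389365-99389614, minus strand: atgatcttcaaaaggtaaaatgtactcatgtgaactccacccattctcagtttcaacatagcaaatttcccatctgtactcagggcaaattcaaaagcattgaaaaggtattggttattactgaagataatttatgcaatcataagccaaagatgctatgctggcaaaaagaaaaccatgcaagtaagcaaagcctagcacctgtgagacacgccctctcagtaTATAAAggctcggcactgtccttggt
Krt5, chr15:101712906-101713155, minus strand: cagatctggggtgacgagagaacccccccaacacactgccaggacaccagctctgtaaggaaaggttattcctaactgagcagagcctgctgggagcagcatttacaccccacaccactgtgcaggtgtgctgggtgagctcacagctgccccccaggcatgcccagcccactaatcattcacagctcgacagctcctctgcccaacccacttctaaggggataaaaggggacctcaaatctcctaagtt
Krt31, chr11:100050552-100050801, minus strand: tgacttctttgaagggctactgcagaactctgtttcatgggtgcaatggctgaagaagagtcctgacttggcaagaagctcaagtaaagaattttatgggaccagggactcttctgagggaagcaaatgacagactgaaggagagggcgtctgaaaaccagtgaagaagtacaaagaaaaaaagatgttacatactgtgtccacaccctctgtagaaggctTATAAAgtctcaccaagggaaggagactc
Krt10, with 375627 counts in C57 uninjured replicate 4, and Krt31, with 0, both have the motif, 26 and 29 bases before the start. Krt2 and Krt5 have none of these exact letters in their windows. Similar letters, which were not searched, stand in both: tatataag in that of Krt2 and gataaaag in that of Krt5.

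Basal keratins summed to 6124 CPM in C57 uninjured replicate 4, which was 44.3 times the highest other library (138.2 CPM in MRL uninjured replicate 1), and the median of the other 15 was 1.55 CPM. Krt14, the type I keratin of the basal layer, had 4991 CPM in C57 uninjured replicate 4, 90.6 in replicate 3, 0.0698 in replicate 1 and 0 in replicate 2. In uninjured MRL tendon it had 90.8 CPM in replicate 1, 0 in replicate 2, 0.0594 in replicate 3 and 0.0797 in replicate 4. The uninjured libraries of each strain thus fell into some with ample Krt14 and some at or under the floor. In injured C57 tendon Krt14 had 0 CPM in BI-181, 3.70 in BI-183, 3.79 in BI-184 and 0.854 in BI-185. In injured MRL tendon it had 2.15 CPM in BI-270, 27.6 in BI-272, 1.29 in BI-274 and 1.03 in BI-275. Krt14 was over 3 counts in 7 of 8 injured libraries and in 3 of 8 uninjured ones, and the 3 uninjured libraries that had it held more than any injured library. Krt5, the type II partner of Krt14, had 17821 counts in C57 uninjured replicate 4, 573 in MRL uninjured replicate 1 and 80 in C57 uninjured replicate 3. It had at most 31 counts in the other 13 libraries. Krt15, a further type I keratin of basal cells, had 2388 counts in C57 uninjured replicate 4, 180 in MRL uninjured replicate 1, 5 in BI-270 and 0 in the rest, C57 uninjured replicate 3 included.

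Suprabasal keratins held 89.0% of the keratin counts in C57 uninjured replicate 4, against 28.4% in BI-272 and 58.9% to 97.5% in the other 14. A like share did not mean like members. Krt10 and Krt80 alone took 26.9% of the keratin counts in C57 uninjured replicate 4. They took 53.0% to 95.5% in the libraries other than both C57 uninjured replicates 3 and 4, MRL uninjured replicate 1 and BI-272. They summed to 70650 CPM in C57 uninjured replicate 4, which was 156 times the highest other library (454.1 CPM in C57 uninjured replicate 3), and the median of the others was 29.4 CPM. Krt2, a type II keratin of the upper epidermis, had 26402 CPM in C57 uninjured replicate 4, 218.0 in replicate 3, 0.681 in replicate 2 and 0.0698 in replicate 1. In uninjured MRL tendon it had 118.3 CPM in replicate 1 and 0.0699 to 0.478 in the other 3. In injured tendon it had 0.0603 to 14.3 CPM in C57, highest in BI-183, and 0.215 to 3.13 in MRL, highest in BI-275. Krt1, the type II partner of Krt10, had 401266 counts in C57 uninjured replicate 4, 992 in MRL uninjured replicate 1, 577 in C57 uninjured replicate 3, 153 in BI-272 and at most 58 elsewhere. Krt78, a type II keratin of stratified epithelium, had 6386 counts in C57 uninjured replicate 4, 162 in replicate 3, 88 in MRL uninjured replicate 1 and at most 1 in the other 13. Krt77, a type II keratin of skin and sweat ducts, had 55 counts in C57 uninjured replicate 4 and 0 in the other 15.

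**Figure D3:**
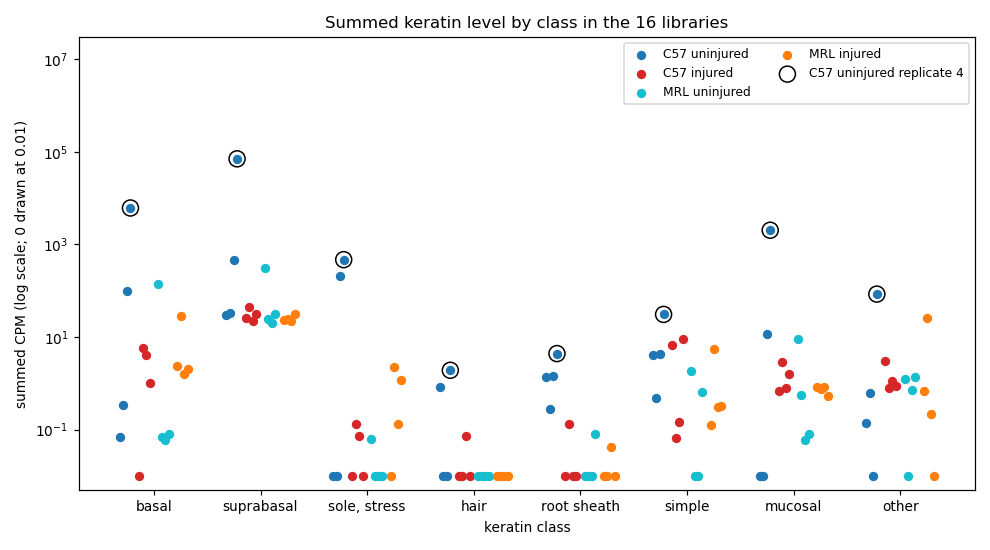
Summed CPM of the members of each keratin class (log scale, 0 drawn at 0.01) in the 16 libraries, coloured by group, with a ring around C57 uninjured replicate 4. The ring is the highest point in all 8 classes, from 1.91 CPM for hair keratins to 70650 CPM for suprabasal keratins.

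Krt10 and Krt80 were the keratins of every library. Krt10, the type I keratin of suprabasal cells, had 11.5 CPM in C57 uninjured replicate 1, 13.1 in replicate 2, 152.7 in replicate 3 and 21064 in replicate 4. In uninjured MRL tendon it had 113.6, 13.8, 14.6 and 20.2 CPM in replicates 1 to 4. In injured C57 tendon it had 15.98 CPM in BI-181, 23.5 in BI-183, 12.5 in BI-184 and 14.8 in BI-185, and in injured MRL tendon 14.3 in BI-270, 15.4 in BI-272, 16.2 in BI-274 and 24.6 in BI-275. The 13 libraries other than the 3 rich in keratins lay between 11.5 and 24.6 CPM of Krt10, with injured and uninjured libraries intermixed. Krt80, a type II keratin found in many epithelia, had 17.7, 18.7, 26.4 and 322.4 CPM in C57 uninjured replicates 1 to 4, and 9.53 CPM in BI-181, 5.61 in BI-183, 8.15 in BI-184 and 10.2 in BI-185. It had 15.4, 9.99, 5.59 and 10.2 CPM in MRL uninjured replicates 1 to 4, and 8.42 CPM in BI-270, 1.69 in BI-272, 4.47 in BI-274 and 1.24 in BI-275. Injured and uninjured libraries did not overlap in Krt80 in C57 and overlapped in MRL. Of the 14424 genes tested in C57, 11.3% did not overlap and 2.55% did so with the injured libraries lower, as Krt80 did, while 1.07% were called changed by the test given below. On the opposite strand, exons of Gm11940 overlap those of Krt10 and exons of Gm35853 those of Krt80. The same holds for Krt5 (Gm44323), Krt7 (Gm671), Krt8 (Gm36026), Krt12 (A830036E02Rik), Krt75 (Gm44460), Krt76 (Gm44356) and Krt90 (Gm44393), and for Krt32 (Gm11571), which had 0 counts. Without a stated strand setting the reads of such pairs cannot be told apart.

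**Figure D4:**
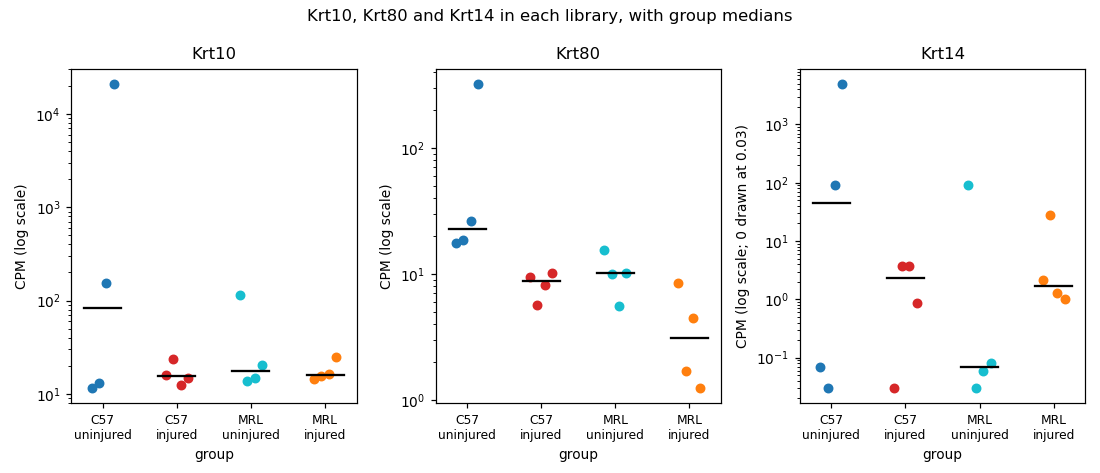
CPM (log scale) of Krt10, Krt80 and Krt14 in each library (points) of the 4 groups, with the group median (line); 0 is drawn at 0.03 for Krt14. C57 uninjured replicate 4 is the top point of each panel, at 21064, 322.4 and 4991 CPM.

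Keratins of sole skin and stressed skin separated the keratin-rich libraries. Krt9, the type I keratin of palm and sole epidermis, had 6359 counts (356.6 CPM) in C57 uninjured replicate 4, against 5 counts in BI-272, 2 in BI-183, 1 in BI-184 and 0 in the other 12, among them C57 uninjured replicate 3 and MRL uninjured replicate 1. Krt16 went the other way: it had 1333 counts (102.7 CPM) in C57 uninjured replicate 3 and 872 (48.9 CPM) in replicate 4, 22 in BI-275, 16 in BI-272, 3 in BI-274 and 0 in the rest. Krt17 had 1307 counts (100.7 CPM) in C57 uninjured replicate 3, 1120 (62.8 CPM) in replicate 4, 32 in BI-272, 1 in MRL uninjured replicate 1 and 0 in the rest. Of their type II partners, Krt6b had 59.3 CPM in replicate 3 and 15.1 in replicate 4, and Krt6a had 97.9 and 117.8 CPM. In proportion to Krt14, Krt16 was at 0.0098 counts per count in C57 uninjured replicate 4 (95% exact interval 0.00916 to 0.0105) and at 1.13 in replicate 3 (1.05 to 1.23). In MRL uninjured replicate 1 it had 0 counts beside 1444 of Krt14. Krt14, Krt16, Krt17 and Krt42 are close paralogs on chromosome 11, and reads that they share may be split or lost in counting.

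Hair keratins were at or near 0 counts in all libraries. Of the 13 in the table, 10 had 0 counts in all 16 libraries, among them Krt31, Krt34, Krt35, Krt81 and Krt86, which are some of the keratins of the hair cortex. In C57 uninjured replicate 4, Krt84, a type II hair keratin also known from the tongue, had 34 counts (1.91 CPM) and the other 12 had 0, beside 1415731 counts on keratins in all. The floor of 3 counts was 0.168 CPM in that library, and a level under it cannot be told from 0. Krt39 (7 counts) and Krt83 (5 counts) were over the floor in C57 uninjured replicate 1 and in no other library. Keratins of the inner root sheath and companion layer of the hair follicle summed to 4.37 CPM in C57 uninjured replicate 4, from 50 counts of Krt73 and 28 of Krt75, and at most 1.46 CPM elsewhere (19 counts of Krt75 in C57 uninjured replicate 3). Of this class of 9, 5 had 0 counts in all libraries.

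In the mucosal and corneal class, a single gene accounted for the whole sum of C57 uninjured replicate 4. Krt24, a type I keratin of differentiated stratified epithelium, had 36106 counts (2025 CPM) in C57 uninjured replicate 4, 149 in replicate 3, 136 in MRL uninjured replicate 1, 43 in BI-183, 18 in BI-272, 10 in BI-275 and at most 2 in the others. The other mucosal and corneal keratins, Krt4, Krt12, Krt13 and Krt76, had 0 counts in C57 uninjured replicate 4. Elsewhere Krt13 reached 20 counts (BI-270), Krt4 18 (BI-274), Krt12 8 (BI-185) and Krt76 1. Krt79, a type II keratin of the upper hair follicle and sebaceous duct, had 1486 counts in C57 uninjured replicate 4, 594 in BI-272 and at most 19 elsewhere. Krt79 was 25.1 CPM in BI-272, although Krt2 was 0.761 CPM there, so this library differed in make-up from the other 3. Krt23 had 345 counts in C57 uninjured replicate 4, 50 in BI-272, 29 in MRL uninjured replicate 1 and 26 in C57 uninjured replicate 3, and Krt7, a keratin of glandular and duct epithelium, had 203, 0, 0 and 4. Both had 0 in the other 12.

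Keratins of simple epithelia summed to 30.7 CPM in C57 uninjured replicate 4, all from Krt7 and Krt23, against at most 9.16 CPM elsewhere (BI-185). Krt8, Krt18, Krt19 and Krt20 had 0 counts in C57 uninjured replicate 4. Krt18 had 26 counts in BI-185, 24 in C57 uninjured replicate 3, 14 in BI-272, and 7 in both C57 uninjured replicate 2 and BI-274. Krt19 had 109 counts in BI-181, 87 in BI-185, 58 in C57 uninjured replicate 1, 53 in BI-272 and at most 6 elsewhere. Krt8, the type II partner of Krt18, had 13 counts in BI-272, 8 in MRL uninjured replicate 4, 3 in BI-270 and 0 elsewhere, so Krt18 and Krt19 were read in libraries with 0 counts of Krt8. Krt222, which was highest in BI-181 (42 counts), and Krt28, with 20 counts in C57 uninjured replicate 1, were also at 0 in C57 uninjured replicate 4. Krt20 reached 5 counts, in BI-185, and Krt42, a close paralog of Krt17, 8 counts, in C57 uninjured replicate 2. Krt90 had 19 counts in C57 uninjured replicate 4 and 0 in the other 15, and Krt88 had 0 in all 16.

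The keratin-rich libraries differed in the make-up of their keratin counts. Counts grow with transcript length, so these shares are compared between libraries and not between genes. In C57 uninjured replicate 4, 33.3% of keratin counts were Krt2, 28.3% Krt1, 26.5% Krt10 and 6.29% Krt14. In C57 uninjured replicate 3 these shares were 28.3% (27.4% to 29.2%), 5.76% (5.32% to 6.24%), 19.8% (19.0% to 20.6%) and 11.7% (11.1% to 12.4%), and Krt16 and Krt17 added 13.3% and 13.1%. In MRL uninjured replicate 1 they were 25.4%, 13.4%, 24.4% and 19.5%, and Krt5 added 7.74%. In BI-272, Krt14 was 32.2%, Krt79 29.3% and Krt10 18.0%, and Krt2 0.888%. The intervals are exact binomial 95% intervals and cover counting error only. The count of Krt14 per count of Krt5 was 4.99 (4.91 to 5.08) in C57 uninjured replicate 4, 14.7 (11.7 to 18.7) in replicate 3 and 2.52 (2.29 to 2.78) in MRL uninjured replicate 1. Krt10 per count of Krt1 was 0.936 (0.932 to 0.940), 3.44 (3.13 to 3.78) and 1.82 (1.68 to 1.97) in the same order. The ratio of Krt24 to Krt10 varied least of the ratios computed, with 0.0961 in C57 uninjured replicate 4, 0.0752 in replicate 3 and 0.0753 in MRL uninjured replicate 1, and even here the interval of the first (0.0951 to 0.0972) did not overlap those of the others. None of these libraries has a replicate of its own, so the differences are between libraries.

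**Figure D5:**
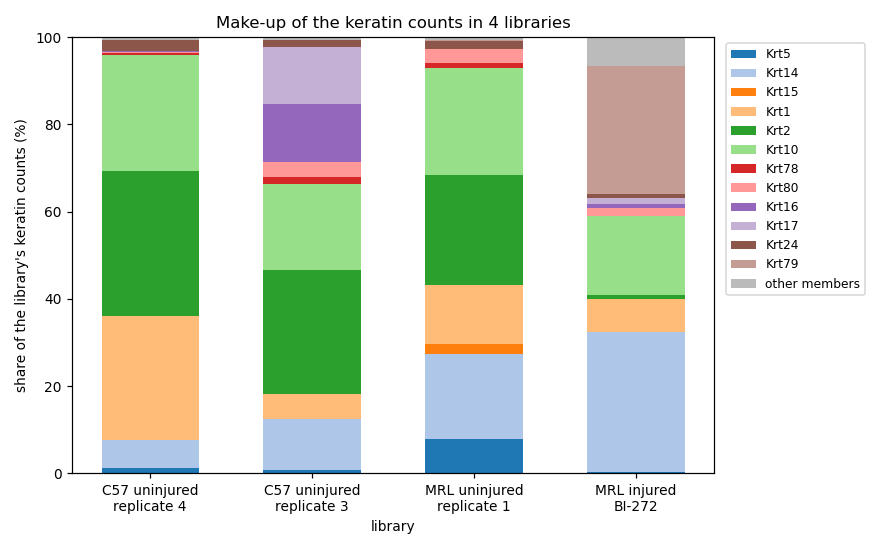
Share of each library's keratin counts (vertical axis, %) taken by 12 named keratins and by all other members, in the 4 libraries with the highest keratin share. Krt1, Krt2 and Krt10 fill most of the bar of C57 uninjured replicate 4, Krt16 and Krt17 are visible in replicate 3 and Krt79 in BI-272.

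Per length of exon, the order of levels in C57 uninjured replicate 4 was Krt2 (10104 CPM per kb), Krt10 (9964), Krt1 (5097), Krt14 (2839), Krt24 (1096) and Krt5 (454.9). Krt9 (138.2), Krt78 (104.2), Krt15 (75.8) and Krt80 (50.4) followed. Among 15892 genes with a count and an exon length in that library, Krt2 ranked 2, Krt10 ranked 3, Krt1 ranked 7 and Krt14 ranked 16. The exon length is that of all annotated exons of a gene, and the length of the transcript made in the tissue was not measured.

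Genes that epidermis expresses besides keratins were read in the same libraries. Of 28 genes of the cornified envelope and granular layer, 27 were highest in C57 uninjured replicate 4, where they summed to 68123 CPM, against 2080 in replicate 3, 1199 in MRL uninjured replicate 1 and a median of 173.5 in the other 15. Calm4, a calcium-binding protein of differentiating keratinocytes, had 17907 CPM there and Flg, which encodes filaggrin, 7219. The exception was Sprr1a, a cornified envelope precursor induced in stressed skin, with 83.0 CPM in replicate 4 and 158.1 in replicate 3. All 12 desmosome genes (17130 against at most 467.7 CPM, with Perp at 8561) and all 12 genes of epithelial identity (4840 against at most 81.1 CPM, with Sfn at 1916) were highest in C57 uninjured replicate 4. Hemidesmosome and basement membrane genes, which basal cells share with vessels and nerves, summed to 531.6 CPM there and to at most 410.8 elsewhere, with 5 of 8 highest there, among them Col17a1.

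Genes of other skin structures were fewer. Of 14 hair follicle genes other than keratins, 10 had at most 3 counts in C57 uninjured replicate 4, Shh, Dsg4 and the keratin-associated protein genes Krtap8-1, Krtap11-1 and Krtap16-1 being at 0 in all 16. Foxn1, a transcription factor of keratinocytes leaving the basal layer and of the hair matrix, had 1582 counts there and at most 7 elsewhere, and Hoxc13 had 99 and at most 3. Of 5 melanocyte genes, Tyrp1 (160 counts) and Dct (122) were read in C57 uninjured replicate 4 and at 0 in the other 15, and Pmel was highest there (200). Tyr and Mlana were at 0 there. Of 5 eccrine gland genes, Aqp5 (3112 counts) and Trpv6 (240) were highest there, and Foxa1 and Foxi1 were at 0. None of 4 Merkel cell genes was highest there, and Atoh1, Isl1 and Sox2 were at 0. The tenocyte list summed to 14362 CPM in C57 uninjured replicate 4, the lowest of the 16 libraries, against 18089 to 69480 in the others. Skeletal muscle genes, in contrast, summed to 64497 CPM in BI-181 and 2013 in BI-183, to 17.6 CPM in C57 uninjured replicate 4, and to 5.53 to 13.3 CPM in the other 13. The part of skin tissue in the keratin counts was not tested.

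The first comparison asked how keratins changed after injury within C57. In edgeR's quasi-likelihood test on the 8 C57 libraries, 155 of 14424 genes (1.07%) were called, which required an adjusted p below 0.05 together with a log2 fold change above 1 in size. Of 5 keratins that passed the expression filter, none was called, although all 5 had an unadjusted p under 0.05. Their fitted log2 fold changes, injured against uninjured, were -8.67 for Krt10, -9.66 for Krt14, -10.93 for Krt2, -12.37 for Krt1 and -3.84 for Krt80. The smallest adjusted p by edgeR was 0.171, for Krt80. Without C57 uninjured replicate 4, 750 of 14983 genes (5.01%) were called, and Krt80 was the 1 keratin called of 6 tested. Krt80 then had a fitted log2 change of -1.40 (SE 0.31, edgeR adjusted p = 0.0337), with 20.9 ± 4.74 CPM (SD, n = 3) in uninjured and 8.37 ± 2.02 CPM (SD, n = 4) in injured tendon. This call is conditional on leaving out a library singled out by its keratin counts, and Krt80 was called in 1 of the 8 fits that left out a C57 library. The other epidermal keratins stayed negative without replicate 4 and were not called, at -1.94 for Krt10, -4.03 for Krt14, -4.18 for Krt2 and -3.58 for Krt1, with edgeR adjusted p of 0.311 to 0.418. With C57 uninjured replicates 3 and 4 both left out, chosen after their keratin counts were seen, 222 of 15883 genes (1.40%) and none of 7 keratins were called. Krt80 was then at -1.12 (SE 0.35, edgeR adjusted p = 0.178), and Krt10 and Krt14 had fitted changes of 0.44 and 5.55, with edgeR adjusted p of 0.594 and 0.299. The 2 uninjured libraries left had 1 and 0 counts of Krt14, so the size of its fitted change is no bound. Krt2 and Krt1 were at 3.51 and 3.23. Krt14, Krt2 and Krt1 then passed the expression filter through the injured group alone, and their values are not read as a rise. The fitted sign of Krt10 turned when replicates 3 and 4 were both left out, but not without replicate 4 alone, and that of Krt80 did not turn.

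DESeq2 on the same 8 libraries called 901 of 16955 genes (5.31%) and 3 of the 6 keratins to which it gave an adjusted p, Krt16, Krt17 and Krt23. These 3 had 0 counts in all 4 injured C57 libraries. In uninjured C57 tendon they had 0 in replicates 1 and 2, so that the calls rested on the counts of replicates 3 and 4 given above. The edgeR filter removed all 3.

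In MRL, 1057 of 14274 genes (7.41%) were called, and none of 6 keratins tested. Of these 6, 1 had an unadjusted p under 0.05, and the smallest adjusted p by edgeR was 0.162, for Krt80, with a log2 fold change of -1.39 (SE 0.60) from 10.3 ± 3.99 to 3.96 ± 3.30 CPM (SD, n = 4 each). Krt2 had -4.63, Krt1 -2.52, Krt14 -1.49, Krt10 -1.21 and Krt79 3.35. DESeq2 called 1819 of 16476 genes (11%) and none of the 3 keratins with an adjusted p, all 3 of which had an unadjusted p under 0.05. When MRL uninjured replicate 1 was left out, 689 of 14864 genes (4.64%) were called, among them 1 of 6 keratins. This was Krt14, with a fitted log2 change of 7.32 (SE 1.76, edgeR adjusted p = 0.0463) in place of -1.49 with all libraries. The remaining uninjured MRL libraries had 0, 1 and 1 counts of Krt14 and the 4 injured ones 51, 652, 30 and 19, so Krt14 passed the expression filter through the injured group alone, the call is conditional on leaving out the library with 1444 counts, and it is not read as a rise. The fits of the other 3 epidermal keratins tested were also positive without that library, Krt1 at 4.03, Krt2 at 2.26 and Krt10 at 0.15, and none was called. Like Krt14, Krt1 and Krt2 then passed the expression filter through the injured group alone, and their values are not read as a rise. Krt79 turned to -1.13 without BI-272.

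The other epidermal genes gave few calls in the same fits. In C57 none of 11 cornified envelope genes tested, of 7 desmosome genes and of 4 epithelial identity genes was called by edgeR, in either direction and with or without the keratin-rich libraries, and the smallest adjusted p with all libraries was 0.164, for Lor (loricrin). DESeq2 counts were not made for these lists. In MRL, 1 of 10 cornified envelope genes and 1 of 6 desmosome genes fell, where 7.41% of all genes tested were called and 307 of 14274 were called lower. These were Dmkn, a secreted protein of the upper epidermis (fell by 1.18 on the log2 scale, edgeR adjusted p = 0.0289), and Ppl, a plakin of the desmosome and cornified envelope (fell by 1.79, edgeR adjusted p = 0.0302). Without MRL uninjured replicate 1 neither was called, with fitted changes of -0.92 for Dmkn and -1.65 for Ppl (edgeR adjusted p of 0.0834 and 0.0827), and Calm4 was called, at 5.74 (edgeR adjusted p = 0.0307), with 0, 3 and 0 counts in the uninjured libraries left and 61, 111, 54 and 96 in the injured ones. Like Krt14, Calm4 then passed the filter through the injured group alone, once the library with 3407 of its counts was left out, and it is not read as a rise either.

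Uninjured MRL and uninjured C57 tendon were compared directly. None of 14055 genes (0%) was called by edgeR, where 1106 had an unadjusted p under 0.05, and neither of the 2 keratins tested was called. Krt10 had a log2 fold change, MRL against C57, of -7.26 and Krt80 of -3.42, with an edgeR adjusted p of 0.621 for both. DESeq2 called 104 of 15999 genes (0.650%) and 1 of 5 keratins, Krt16, which was at 0 in all uninjured MRL libraries and in C57 uninjured replicates 1 and 2. Without C57 uninjured replicate 4 alone Krt10 was at -0.48 and Krt80 at -0.95, and neither was called. Without the 3 keratin-rich libraries Krt10 was at 0.48 and Krt80 at -0.996, with edgeR adjusted p of 0.845 and 0.758.

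The difference between the strains in their response to injury was tested as an interaction over all 16 libraries. By edgeR none of 15947 genes (0%) was called, where 1939 had an unadjusted p under 0.05, and none of 11 keratins, of which 5 had an unadjusted p under 0.05. The smallest adjusted p of a keratin by edgeR was 0.342, for Krt16, which had 22 and 16 counts in BI-275 and BI-272 and 0 in the injured C57 libraries. Krt10 had an interaction of 7.40 and Krt80 of 2.40 on the log2 scale. Without C57 uninjured replicate 4 that of Krt10 was 0.68 and that of Krt80 -0.03 (SE 0.70, edgeR adjusted p = 0.9999), and a difference between the strains was not shown for either. DESeq2 called 198 of 17114 genes (1.16%) and 3 of 7 keratins, Krt16, Krt17 and Krt23, the genes whose counts in C57 lay in uninjured replicates 3 and 4. The C57 and MRL comparisons share no library, and the interaction uses the libraries of both.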

How the data were processed

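RNA was extracted from single tendons, and single-end reads of 100 nt were sequenced. The labels name a TruSeq kit, whereas the methods describe SMARTer pre-amplification with NexteraXT libraries, and neither names molecular identifiers, so intervals cover counting error only. The submitters' processing notes name Trimmomatic 0.36, STAR 2.5.2b, Subread 1.5.0p3, featureCounts and DESeq2 1.14.1, with GRCm38.p5; the strand setting and gene annotation of the counting are not given in the sources used here. The authors deposited whole-number counts per gene symbol for 16 libraries, without normalization, and all columns of values were used (0 left out).

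CPM were computed from total counts per library. Comparisons were fitted on all genes with edgeR 4.0.16 in R 4.3.3 (expression filter on groups, TMM, robust quasi-likelihood test), with Benjamini-Hochberg adjustment over all genes tested, and called at an adjusted p under 0.05 and, except for the interaction, an absolute log2 fold change over 1. An SE beside an edgeR value is the size of the log2 change divided by the square root of the test's F statistic. DESeq2 1.42.0, other scaling, no filter and leaving out each library were the alternatives. The fits were tested on simulated counts for the C57 injury comparison alone, with the means and depths of the C57 libraries. No simulated library was made to stand apart as C57 uninjured replicate 4 did. Gene positions and exon lengths came from GENCODE M21 (GRCm38), and promoters from RefSeq. The members, classes and gene lists were chosen with earlier results of these data known. The text names all members of the basal, suprabasal and sole and stress classes, hair keratins over 3 counts, other members of at least 10 CPM in a library and those called or extreme in a comparison, and for other lists up to 4 examples with the highest count in C57 uninjured replicate 4 or the smallest adjusted p. Others named were chosen after their values were seen. The methods give 4 animals per group.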

Additional observations from a re-analysis of the deposited data

Results flagged for a closer look

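In groups of 4 libraries, a library was singled out when its gap to the nearest of the others, divided by the range of the group, was above Dixon's 95% critical value for 4 samples. All 50 members, the 8 class sums and the sum of all keratins were examined in each group where a library had over 3 counts, and 62 of 102 group values met this. For normal values chance marks about 1 in 20 groups, but that rate does not apply to these sparse counts: in 18 of the 62 the other 3 libraries had 0 counts, which fixes the ratio at 1 whatever the level. The values are therefore a description of which library holds the counts, and sums share their members.

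C57 uninjured replicate 4 accounted for 23 of the 62. The ratio was 1 for Krt9, Krt15, Krt77, Krt84 and Krt90, 0.998 for Krt1 and Krt79, 0.994 for Krt5 and Krt24, 0.993 for Krt10, 0.992 for Krt2, 0.982 for Krt14, 0.973 for Krt7, 0.971 for Krt80, 0.965 for Krt78, 0.903 for Krt73 and 0.896 for Krt23. For class sums it was 0.994 for suprabasal and for mucosal and corneal keratins, 0.993 for other keratins, 0.984 for basal and 0.876 for simple epithelial keratins, and it was 0.991 for all keratins.

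MRL uninjured replicate 1 accounted for 14, with 1 for Krt13, Krt15, Krt23 and the basal sum, 0.999 for Krt14, 0.998 for Krt5, 0.997 for Krt2, 0.994 for Krt1, 0.991 for Krt24, 0.987 for Krt78, 0.973 for all keratins, 0.964 for the suprabasal sum, 0.945 for the mucosal and corneal sum and 0.937 for Krt10. BI-272 accounted for 9, with 1 for Krt9, Krt17 and Krt23, 0.973 for Krt79 and the sum of other keratins, 0.969 for the basal sum, 0.963 for the simple epithelial sum, 0.958 for Krt14 and 0.855 for Krt19.

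C57 uninjured replicate 1 had 4, Krt28, Krt39 and Krt83 at 1 and Krt19 at 0.981. BI-181 had Krt222 (0.948) and the sum of other keratins (0.837), BI-183 had Krt24 (0.966) and Krt5 (0.895), BI-185 had Krt18 (0.965) and Krt12 (0.903), and BI-270 had Krt15 (1) and Krt13 (0.949). The remaining ones were Krt42 in C57 uninjured replicate 2 (0.897), Krt4 in MRL uninjured replicate 2 (1) and in BI-274 (1), and Krt8 in MRL uninjured replicate 4 (1). Krt16 and Krt17 in uninjured C57 tendon did not meet the criterion, since replicates 3 and 4 both had them.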

How the results depend on the processing

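With DESeq2 in place of edgeR, genes called rose to 901 in C57, 1819 in MRL, 104 between uninjured tendons and 198 in the interaction, and keratins called were 3 in C57, 1 between uninjured tendons and 3 in the interaction. Without an expression filter, 1 gene was called between uninjured tendons. Leaving out 1 library at a time, genes called ranged from 10 (without C57 uninjured replicate 3) to 750 (without replicate 4) in C57, where each of the 8 libraries moved the count by over 1.5 times, from 689 (without MRL uninjured replicate 1) to 1260 in MRL, and from 0 to 3 (without MRL uninjured replicate 4) between uninjured tendons, and keratins called from 0 to 1 in each strain. In MRL the fitted log2 change ranged from -1.52 to 0.15 for Krt10, -3.96 to 7.32 for Krt14, -5.63 to 2.26 for Krt2, -3.43 to 4.03 for Krt1 and -1.13 to 3.85 for Krt79, and the interaction of Krt80 from -0.02793 (without C57 uninjured replicate 4) to 2.78. The highest values of Krt14, Krt2 and Krt1 came without MRL uninjured replicate 1, where they passed the expression filter through the injured group alone. The Krt80 change after injury was negative in all these fits, at -4.19 to -1.40 in C57 and -2.05 to -1.09 in MRL. With the keratin-rich libraries left out together, an alternative chosen after seeing the data, Krt10 was 0.44, Krt14 5.55, Krt2 3.51 and Krt1 3.23 in C57. Of these, Krt14, Krt2 and Krt1 passed the expression filter through the injured group alone. Krt10 was 0.48 between uninjured tendons and -0.24 in the interaction. The cause was not tested. Summed keratin CPM in C57 uninjured replicate 4 was 103 times that of the next library, 120 with TMM-adjusted sizes, 85.6 with Krt6a, Krt6b, Krt33a and Krt33b added and 156 without Krt14, Krt16, Krt17 and Krt42.

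Same-numbered uninjured libraries of the strains are different animals, and their deviations from the group means correlated at -0.19, -0.03, -0.10 and -0.24, so the number was not taken as a pairing. With the replicate block between uninjured tendons 0 keratins were called, as without it, and Krt10 moved from -7.26 to -1.72 and Krt80 from -3.42 to -1.93. Most members were at or near 0 counts, where depth limits any statement, and a single library cannot show how often uninjured tendon carries keratin counts.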
